A study of Mus musculus with 32 samples.

Results

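The collagen genes of the mouse are described here across tumours of 4 mouse models of ovarian cancer and across normal ovary and oviduct. Members were taken by name, as the genes whose symbol is Col, a type number, a and a chain number, with nothing before or after. This gave 44 of the 55450 genes in the tables. By class, 11 are fibrillar collagens, 6 are the type IV chains of basement membranes and 27 belong to other classes. The other classes hold 6 type VI chains, 9 fibril-associated collagens with interrupted helices (FACIT), 2 multiplexins (Col15a1 and Col18a1), 3 network collagens (Col8a1, Col8a2 and Col10a1), the anchoring collagen Col7a1, 4 transmembrane collagens and 2 remaining genes (Col26a1 and Col28a1).

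Collagens are triple helices of 3 polypeptide chains, and each chain has its own gene. Fibrillar collagens, with types I and III the most abundant in most tissues, are made mainly by fibroblasts and form the fibres of the stroma. Type IV collagen forms the network of the basement membrane under epithelia and around vessels and smooth muscle. Type VI forms beaded filaments between basement membrane and stroma, built from Col6a1, Col6a2 and a further chain, in most tissues Col6a3. FACIT collagens decorate fibrils, and Col7a1 forms the anchoring fibrils that tie an epithelial basement membrane to the stroma below it.

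RNA-seq of total RNA gave 32 libraries in 10 groups, all from females. OSE-BPR tumours (3 primary tumours of the genetically engineered mouse model, GEMM, and 5 allografts) arose in FVB mice with Brca1 fl/fl, Trp53 fl/fl and K18GT121 Tg/+ after adeno-Cre was given under the ovarian bursa. Ad-BPR tumours (2 GEMM, 4 allografts) carried the same alleles on C57Bl/6, with adeno-Cre given into the oviduct. Pax8-BPR tumours (4 GEMM, 2 allografts) added Pax8-CreERT2 Tg/+, a tamoxifen-activated Cre for oviduct secretory cells, on C57Bl/6. Ovgp1-BPR tumours (3 GEMM, 3 allografts), also C57Bl/6, carried Brca1 fl/fl, K18GT121 Tg/+, Ovgp1-CreERT2 Tg/+ and, by the sample labels, Trp53 KozR172H ki/+, while the series text lists Trp53 fl/fl for that genotype as well as the R172H mutation. K18GT121 is a transgene whose product inhibits Rb. Normal ovary and normal oviduct (3 each) came from the same 3 wild type C57Bl/6 mice. Ages are not given in the labels, nor is the primary tumour that each allograft came from, nor whether the tumours of a group came from separate animals, so p-values measure the spread between these samples. There was no wild-type FVB library, so strain and model cannot be told apart in any comparison that involves OSE-BPR. By the sample labels only Ovgp1-BPR carried Trp53 KozR172H, so that allele and model cannot be told apart where Ovgp1-BPR is compared with other models.

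Library totals ran from 13.99 M to 20.51 M assigned counts with a median of 17.42 M, and collagen genes took between 0.481% and 3.229% of them. Trp53, which like Brca1 is altered in all 4 models, lay between 108 and 176 TPM (the usual transcript abundance, scaled to transcript length and to the library's total) in the Ovgp1-BPR libraries and between 9.36 and 34.5 TPM in the other tumours. Gene totals do not separate reads in floxed exons from the rest, so they check no deletion. The labelled tissues carried their markers: granulosa and theca markers summed to 4714 to 5357 TPM in ovary, and smooth muscle markers to 8393 to 11164 TPM in oviduct. Some libraries stood apart from their groups. Normal oviduct 1 and 3 held 783 and 535 TPM of granulosa and theca markers against 63.0 in oviduct 2. Ovgp1-BPR GEMM 1 and allograft 3 held 2926 and 4437 TPM of epithelial markers against 716 to 1236 in the other 4 Ovgp1-BPR libraries, and OSE-BPR GEMM 1 had the highest fibrillar collagen sum of its model. Counts that rest on these libraries are also given without them, as alternatives chosen after the data were seen.

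All collagen genes together summed to 3144 ± 212 TPM in ovary and 4724 ± 1074 TPM in oviduct (SD, n = 3 each). The tumour groups had means between 2452 ± 540 TPM in OSE-BPR allografts (SD, n = 5) and 7322 ± 3568 TPM in Ad-BPR allografts (SD, n = 4). The OSE-BPR and Ovgp1-BPR groups had means of 2452 to 3085 TPM, and the mean share of fibrillar genes in them was below that in the normal tissues. Fibrillar genes held 42.6% ± 0.53 of collagen TPM in ovary and 52.6% ± 2.39 in oviduct (SD, n = 3 each). They held 55.7% to 62.8%, as group means, in the Ad-BPR and Pax8-BPR groups, against 8.59% to 10.2% in OSE-BPR and 9.00% to 18.6% in Ovgp1-BPR. As group means, type VI chains held 61.7% ± 33.3 in OSE-BPR GEMM (SD, n = 3), 59.0% ± 19.9 in OSE-BPR allografts (SD, n = 5), 46.4% ± 9.65 in Ovgp1-BPR GEMM and 43.1% ± 14.2 in Ovgp1-BPR allografts (SD, n = 3 each), against 11.2% to 17.0% in the Ad-BPR and Pax8-BPR groups. Their share was 25.39% ± 3.66 in ovary and 29.05% ± 3.02 in oviduct (SD, n = 3 each), inside the OSE-BPR GEMM range of 23.18% to 81.51%. Single libraries differed: type IV genes exceeded type VI genes in OSE-BPR GEMM 1 and allograft 5, and fibrillar genes exceeded them in OSE-BPR GEMM 1 and Ovgp1-BPR allograft 3. Class sums are described here without a test.

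**Figure D1:**
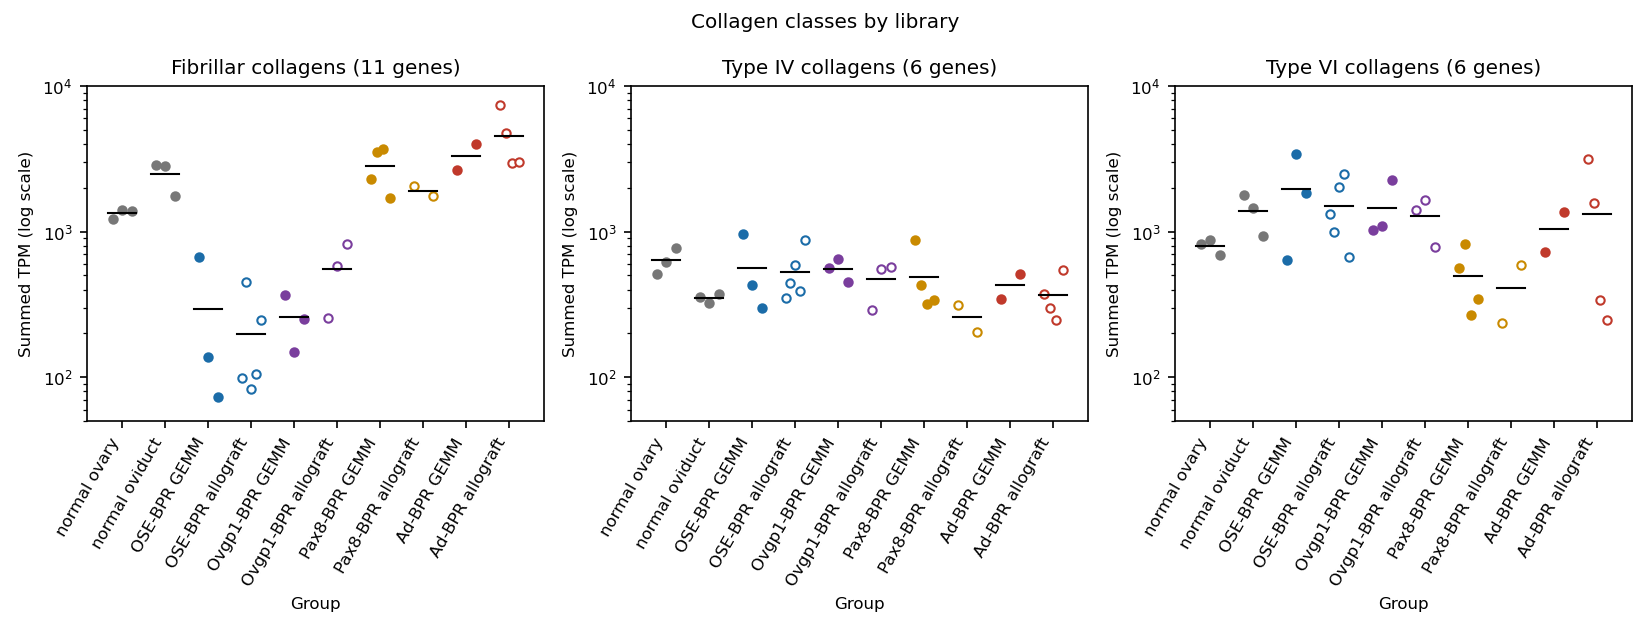
Summed TPM (log scale) of the 11 fibrillar, 6 type IV and 6 type VI collagen genes in each of the 32 libraries, by group; filled points are GEMM or normal libraries, open points allografts, and bars group means. The fibrillar sums of OSE-BPR (73.0 to 667 TPM) and Ovgp1-BPR (149 to 825 TPM) lie below those of the normal tissues and of Ad-BPR and Pax8-BPR, while the type IV sums lie between 203 and 964 TPM in all libraries.

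In sum over the 11 fibrillar genes, the 8 OSE-BPR libraries ran from 73.0 to 667 TPM with a median of 121, and the 6 Ovgp1-BPR libraries from 149 to 825 with a median of 312. The 6 Pax8-BPR libraries ran from 1713 to 3694 TPM with a median of 2170, and the 6 Ad-BPR libraries from 2648 to 7459 with a median of 3510. Ovary lay between 1220 and 1417 TPM and oviduct between 1769 and 2887. The OSE-BPR and Ovgp1-BPR ranges thus lay below all 6 normal libraries, Pax8-BPR spanned the oviduct range, and the lowest Ad-BPR library lay inside it. Against its tissue of origin, the mean fibrillar sum was 4.59-fold lower in OSE-BPR GEMM than in ovary, and 12.8-fold lower without OSE-BPR GEMM 1, the highest library of its group. It was 9.71-fold lower in Ovgp1-BPR GEMM than in oviduct. The ratio to oviduct was 1.33 in Ad-BPR GEMM and 1.12 in Pax8-BPR GEMM, and the latter was 0.98 without normal oviduct 3. In bulk tissue, fewer cells of a type and less RNA per cell cannot be told apart.

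Type IV sums differed far less: the group means lay between 258 ± 77.2 TPM in Pax8-BPR allografts (SD, n = 2) and 636 ± 131 TPM in ovary (SD, n = 3). Type VI sums had group means between 412 ± 249 TPM in Pax8-BPR allografts (SD, n = 2) and 1971 ± 1402 TPM in OSE-BPR GEMM (SD, n = 3), with wide spread inside the tumour groups. In each group, between 33 and 38 of the 44 genes had a mean of at least 1 TPM. Col9a1 and Col19a1 stayed at or below 1.63 and 0.06 TPM in all 32 libraries and were too low to test, and Col2a1 and Col10a1 were too low to test between the normal tissues.

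**Figure D2:**
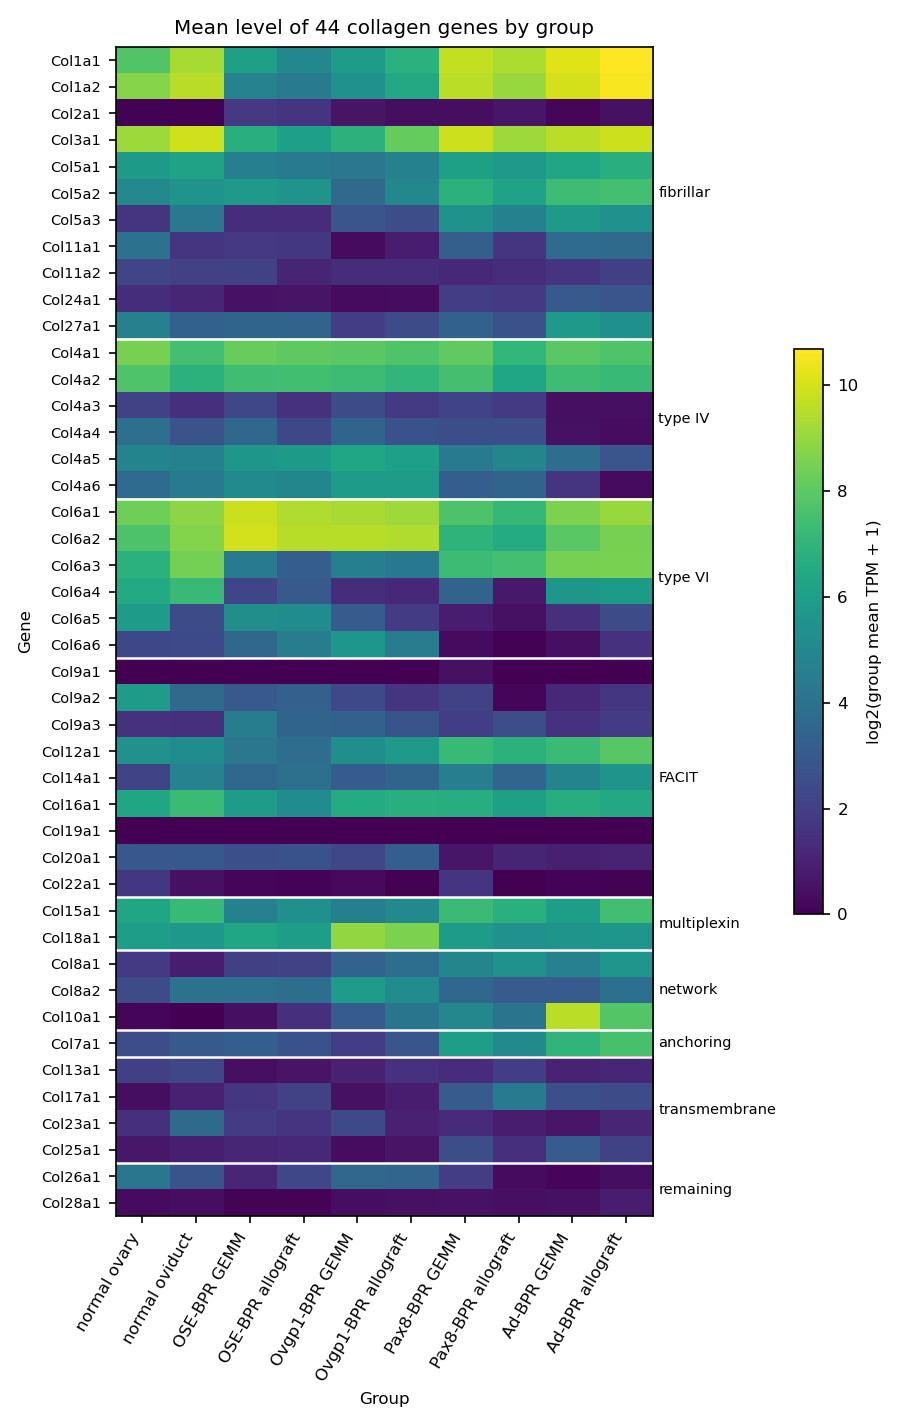
Mean level of each of the 44 collagen genes in each of the 10 groups as log2(group mean TPM + 1), with genes in rows ordered by class and groups in columns. Col1a1, Col1a2 and Col3a1 are bright in ovary, oviduct, Pax8-BPR and Ad-BPR and darker in OSE-BPR and Ovgp1-BPR, whereas Col6a1 and Col6a2 are brightest in OSE-BPR and Ovgp1-BPR.

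Collagen genes differed widely among the 4 models. With the mean of GEMM and allografts taken for each model, edgeR's quasi-likelihood test called 36 of the 42 collagen genes tested as differing among models (adjusted p below 0.05), where 64.1% of all genes tested were called. The lowest adjusted p-values of that test, by edgeR, were those of the 3 type V genes, at 3.59e-07 for Col5a3, 4.04e-07 for Col5a1 and 1.34e-06 for Col5a2. Type V collagen is a minor fibrillar collagen that joins type I in mixed fibrils. The count was 31 to 36 when 1 library was left out in turn, and 33 without Ovgp1-BPR GEMM 1 and allograft 3. The 6 not called were Col4a1, Col4a2, Col4a3, Col11a2, Col22a1 and Col23a1. Col4a1 and Col4a2 encode the 2 chains of the common type IV network.

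Within the C57Bl/6 models, Ovgp1-BPR was compared with the mean of Ad-BPR and Pax8-BPR. Strain is shared here, but Trp53 allele and model cannot be told apart. edgeR's quasi-likelihood test called 27 of 42 collagen genes, 9 higher and 18 lower in Ovgp1-BPR, where 42.4% of all genes tested were called (22.6% higher and 19.7% lower). The median log2 fold change was -0.64 over the collagen genes tested and -0.01 over all genes tested. The count was 24 to 28 when 1 library was left out in turn, and 26 without Ovgp1-BPR GEMM 1 and allograft 3. The 2 groups of libraries did not overlap in TPM for 11 of the genes, where 9.88% of all genes tested did not overlap (8.47% higher and 1.41% lower in Ovgp1-BPR): Col1a1, Col1a2, Col5a1, Col5a2, Col5a3, Col6a3 and Col7a1 were lower, and Col4a6, Col6a6, Col18a1 and Col20a1 higher, in all 6 Ovgp1-BPR libraries than in all 12 others. Of the 11 fibrillar genes, 9 fell and none rose (median log2 fold change -2.94), and of the 6 type IV genes 3 rose and none fell (median 1.77).

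OSE-BPR was compared with the equal-weight mean of the 3 oviduct-origin models, separately in allografts and in GEMM tumours. In allografts, edgeR's quasi-likelihood test called 19 of 42 collagen genes, 5 higher and 14 lower in OSE-BPR, where 37.8% of all genes were called (20.4% higher and 17.4% lower), with medians of -0.21 and 0.04. Of the 11 fibrillar genes, 6 fell and none rose (median -1.56). Leaving out 1 library gave 15 to 20 calls, and leaving out the 2 Ovgp1-BPR libraries named above gave 16. In GEMM tumours 15 genes were called, 7 higher and 8 lower, where 26.0% of all genes were called (14.9% higher and 11.1% lower), with medians of -0.49 and 0.02. That count is less firm: it was 6 without OSE-BPR GEMM 2, 3 without OSE-BPR GEMM 3 and 5 without Ad-BPR GEMM 2, and up to 14 when others were left out. Without OSE-BPR GEMM 1 it was 12, and without the 2 Ovgp1-BPR libraries also 12.

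Ovgp1-BPR and OSE-BPR were also compared directly. edgeR's quasi-likelihood test called 10 of 42 collagen genes, 7 higher and 3 lower in Ovgp1-BPR, where 29.2% of all genes were called (15.1% higher and 14.2% lower), with medians of -0.07 and 0.01. Rises included Col18a1 (2.67 ± 0.54, adjusted p = 0.00119) and Col5a3 (1.73 ± 0.46, adjusted p = 0.00781). Col5a2 fell (-1.37 ± 0.33, adjusted p = 0.00409). Col6a5 was called lower too (-2.88 ± 1.01, adjusted p = 0.0372), but missed the threshold in 7 of the 14 fits that left out 1 library, with adjusted p from 0.0521 without OSE-BPR GEMM 3 to 0.0912 without Ovgp1-BPR GEMM 3. The other libraries were OSE-BPR GEMM 2 and allograft 3, and Ovgp1-BPR GEMM 2, allograft 1 and allograft 2. Col2a1, also called lower, missed the threshold in 13 of the 14 fits. Of the genes called higher, Col8a1 missed it in 6 and Col13a1 in 4, while Col5a3, Col12a1 and Col18a1 held in each. Col1a1 (0.84 ± 0.63, adjusted p = 0.33) and Col1a2 (1.39 ± 0.81, adjusted p = 0.2) did not pass the test. The count was 4 without OSE-BPR GEMM 2, 6 without OSE-BPR GEMM 3, Ovgp1-BPR GEMM 2 or Ovgp1-BPR GEMM 3, and up to 13 otherwise, which was reached without OSE-BPR GEMM 1. Without Ovgp1-BPR GEMM 1 and allograft 3 it was 11.

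**Figure D3:**
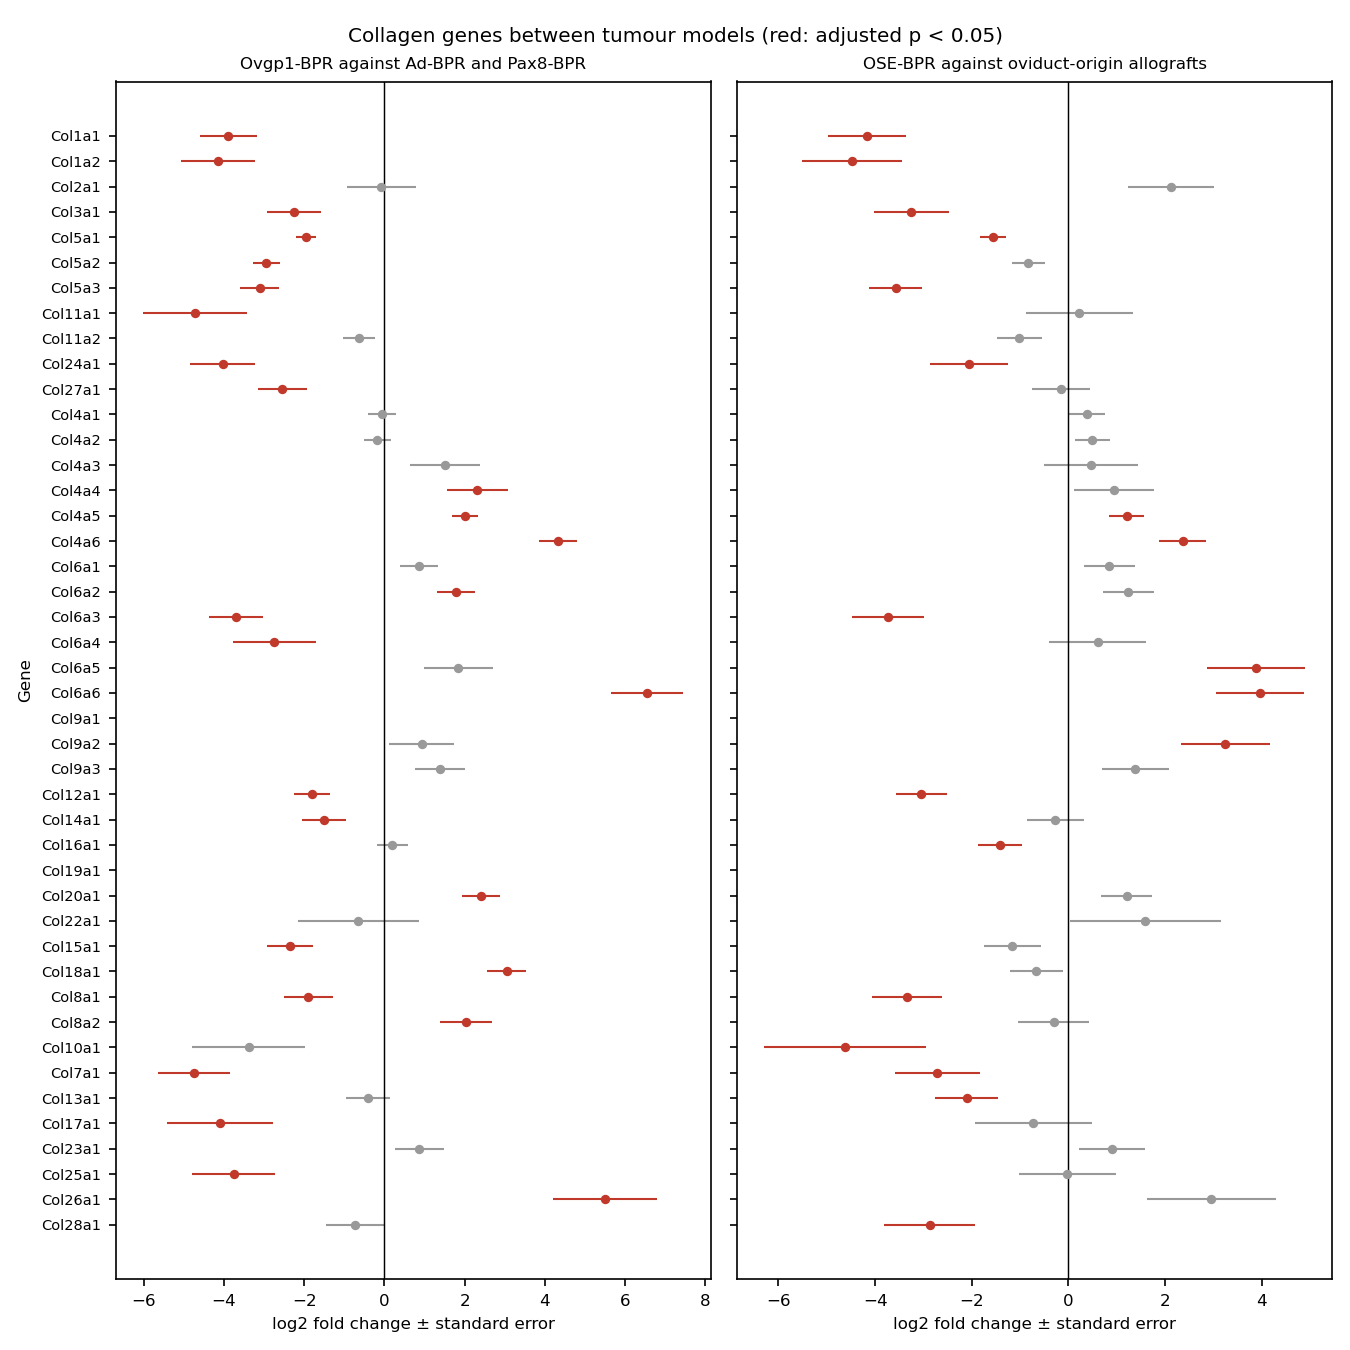
Log2 fold change with its standard error for each collagen gene tested, ordered by class, for Ovgp1-BPR against Ad-BPR and Pax8-BPR (left) and for OSE-BPR against the oviduct-origin models in allografts (right); red marks genes called by edgeR at an adjusted p below 0.05. In both panels the called fibrillar genes lie left of 0, and Col4a5, Col4a6 and Col6a6 lie right of it.

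Col1a1 (chromosome 11, 94936224 to 94953042, plus strand, GRCm38), the main chain of type I collagen, shows the fibrillar pattern. Its levels were 167, 23.1 and 6.87 TPM in OSE-BPR GEMM and 19.5, 69.2, 4.78, 11.2 and 49.5 TPM in OSE-BPR allografts. In Ovgp1-BPR they were 107, 48.1 and 21.3 TPM in GEMM tumours and 37.7, 69.2 and 232 TPM in allografts. All 6 Pax8-BPR libraries, from 523 to 1026 TPM, and all 6 Ad-BPR libraries, from 796 to 2726 TPM, lay above these. Ovary held 192, 238 and 228 TPM and oviduct 702, 729 and 430 TPM, so the Pax8-BPR range overlapped that of oviduct, and all Ad-BPR libraries exceeded it. By edgeR's quasi-likelihood test Col1a1 was lower in Ovgp1-BPR than in Ad-BPR and Pax8-BPR by a log2 fold change of -3.89 ± 0.71 (adjusted p = 0.000246), and lower in OSE-BPR than in the oviduct-origin allografts by -4.17 ± 0.80 (adjusted p = 0.000459). Both calls held with each library left out in turn.

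Col1a2, the second chain of type I, fell by the same measure by 4.14 ± 0.92 in Ovgp1-BPR (adjusted p = 0.00132) and by 4.49 ± 1.03 in OSE-BPR allografts (adjusted p = 0.0029), on the log2 scale. Type I collagen holds more Col1a1 than Col1a2 chain, and the ratio of the transcripts moved with tissue and model. The Col1a1 to Col1a2 TPM ratio was 0.51 ± 0.041 in ovary and 0.82 ± 0.028 in oviduct (SD, n = 3 each). It lay between 0.869 and 1.37 over all Ad-BPR and Pax8-BPR libraries. In OSE-BPR it ran from 1.07 to 7.26 and in Ovgp1-BPR from 1.02 to 7.53, where both genes were low. Col1a2 was thus the higher of the pair in all 6 normal libraries, and Col1a1 in all OSE-BPR, Ovgp1-BPR and Pax8-BPR libraries.

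Col3a1, the single gene of type III collagen, ran from 7.33 to 276 TPM in OSE-BPR (median 27.8), 49.8 to 435 in Ovgp1-BPR (median 164), 412 to 1507 in Pax8-BPR (median 595) and 641 to 1298 in Ad-BPR (median 859). The Ovgp1-BPR range met the low end of Pax8-BPR, so its groups overlapped. edgeR called it lower in Ovgp1-BPR (-2.27 ± 0.67, adjusted p = 0.0105) and in OSE-BPR allografts (-3.25 ± 0.78, adjusted p = 0.00295). The Col3a1 to Col1a1 TPM ratio was 2.55 ± 0.059 in ovary and 1.57 ± 0.066 in oviduct (SD, n = 3 each). It was lower than both in Ad-BPR, at means of 0.691 in GEMM tumours and 0.641 in allografts. The same held for Pax8-BPR, at 1.06 and 0.846. In OSE-BPR these means were 1.31 and 1.87, and in Ovgp1-BPR 3.58 and 3.77.

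The type V genes had smaller standard errors than those of type I. Col5a1 stayed between 14.3 and 38.6 TPM in OSE-BPR and 14.3 and 28.4 TPM in Ovgp1-BPR, against 46.0 to 83.4 TPM in Pax8-BPR and 75.6 to 151 TPM in Ad-BPR. Col5a3 was at 0.67 to 2.57 TPM in OSE-BPR, 1.92 to 9.97 in Ovgp1-BPR, 11.0 to 106 in Pax8-BPR and 25.1 to 83.5 in Ad-BPR. By edgeR, Col5a1, Col5a2 and Col5a3 fell in Ovgp1-BPR by 1.96 ± 0.25, 2.94 ± 0.34 and 3.11 ± 0.48 on the log2 scale (adjusted p = 5.3e-06, 1.91e-06 and 4.76e-05). Col5a2 did not follow the others in OSE-BPR, where it lay between 14.8 and 79.4 TPM. Its median there, 47.5 TPM, was near oviduct (43.9 to 46.5 TPM) and above ovary (27.58 to 34.3 TPM). Its change in OSE-BPR allografts did not pass the test (-0.83 ± 0.34, adjusted p = 0.058, edgeR).

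Of the minor fibrillar genes, Col11a1 and Col24a1 fell in Ovgp1-BPR against Ad-BPR and Pax8-BPR (-4.73 ± 1.3 and -4.03 ± 0.81, edgeR adjusted p = 0.00638 and 0.00056). Col27a1 fell as well (-2.55 ± 0.61, adjusted p = 0.00236). Col11a1, a chain that joins type V and type II fibrils, was at 10.9 to 18.9 TPM in ovary, 0.67 to 3.91 in oviduct and at most 2.21 in Ovgp1-BPR. Col2a1, the cartilage collagen, stayed at or below 5.43 TPM in all libraries and was highest in OSE-BPR (0.91 to 5.43 TPM, median 1.40). Cartilage markers summed to 24.9 to 116 TPM in OSE-BPR and 68.9 to 75.2 in ovary, where Col2a1 was at or below 0.10 TPM.

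Fibroblast markers were read beside the fibrillar genes. Summed over 7 markers, they lay at 8.39 to 99.8 TPM in OSE-BPR, 88.7 to 227 in Ovgp1-BPR, 83.8 to 353 in Pax8-BPR, 197 to 547 in Ad-BPR, 181 to 210 in ovary and 283 to 371 in oviduct, so the Ovgp1-BPR and Pax8-BPR ranges overlapped, as did those of Ovgp1-BPR and Ad-BPR. In Ovgp1-BPR against Ad-BPR and Pax8-BPR, 4 of the 7 fell (Pdgfrb, Thy1, Fap and Dpt) and none rose by edgeR's quasi-likelihood test, where 19.7% of all genes fell. Pdgfra did not pass (1.28 ± 0.61, adjusted p = 0.0966). In OSE-BPR against the oviduct-origin allografts the same 4 fell and none rose, where 17.4% of all genes fell. No marker of the 7 was at 0 in all libraries of a group, though Fap, Dpt, Pi16 and Dpep1 each had a group with a library at 0. Smooth muscle, endothelial and pericyte markers summed to 134 to 378, 53.9 to 99.7 and 20.8 to 55.4 TPM in OSE-BPR, against 313 to 1550, 77.1 to 195 and 33.6 to 114 TPM in the other models. The part of these markers in the collagen result was not tested.

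Among the type IV genes, the models shared the common chains and differed in Col4a5 and Col4a6. Col4a1 lay between 85.3 and 591 TPM over the 26 tumours, and its median by model was 198, 212, 182 and 240 TPM in OSE-BPR, Ad-BPR, Pax8-BPR and Ovgp1-BPR, which is less than the spread inside any of them. The Col4a1 to Col4a2 TPM ratio stayed between 1.21 and 2.10 in all 32 libraries. These are head to head neighbours on chromosome 8 whose annotated starts overlap, and reads from their shared start cannot be assigned with certainty, since whether counting used strand is not stated.

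Col4a6 (chromosome X, 141165403 to 141474076, minus strand) and Col4a5 (chromosome X, 141475385 to 141689234, plus strand) are head to head as well, 1308 bases apart. Their chains form, together, the type IV trimer of smooth muscle and of some epithelial basement membranes. Col4a6 was 12.3 ± 0.21 TPM in ovary (SD, n = 3) and at 15.5, 24.6 and 22.5 TPM in oviduct. It was at 29.1, 71.9 and 70.1 TPM in Ovgp1-BPR GEMM, 47.6, 104 and 19.9 TPM in Ovgp1-BPR allografts, and 15.4 to 50.5 TPM in OSE-BPR (median 29.1). It was at 3.95, 17.7, 1.89 and 9.25 TPM in Pax8-BPR GEMM and 6.01 and 13.7 TPM in allografts of that model. In Ad-BPR it was at 3.5 and 0.66 TPM in GEMM tumours and at 0.36, 0.25, 0.21 and 0.11 TPM in allografts. Of the 6 Ad-BPR libraries, 5 lay below all libraries of the other models and of the normal tissues.

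By edgeR's quasi-likelihood test, Col4a6 was higher in Ovgp1-BPR than in Ad-BPR and Pax8-BPR by 4.33 ± 0.47 on the log2 scale (adjusted p = 8.69e-07), and higher in OSE-BPR than in the oviduct-origin allografts by 2.37 ± 0.49 (adjusted p = 0.000798). Col4a5 rose with it in the first comparison (2.02 ± 0.33, adjusted p = 7.43e-05). The 2 genes did not stay in step: the Col4a5 to Col4a6 TPM ratio was 1.10 to 1.43 in oviduct, 0.966 to 1.93 in Ovgp1-BPR, 1.21 to 2.97 in OSE-BPR, 0.940 to 8.44 in Pax8-BPR and 5.54 to 66.7 in Ad-BPR. Col4a4, of the minor chains known from kidney and ear basement membranes, was called higher in Ovgp1-BPR too (2.32 ± 0.75, adjusted p = 0.0175), but missed the threshold without Ad-BPR GEMM 2 (adjusted p = 0.0593) or Pax8-BPR allograft 2 (adjusted p = 0.0531). Smooth muscle markers summed to 385 to 1062 TPM in Ovgp1-BPR, 313 to 1315 in Pax8-BPR and 565 to 1550 in Ad-BPR, and their part in the type IV result was not tested.

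The 120 bases before the start site of Col4a6 are shown because its start faces that of Col4a5, and those of Col7a1 and Col10a1 because these genes, described further on, differed widely between models. They come from the RefSeq table of build GRCm38.p6, which had an entry for 35 of the 44 genes. Each is written 5′ to 3′ on the gene's strand, with a GC box (GGGCGG or CCGCCC) or TATA box (TATAAA or TTTATA) in capitals.
Col4a6, chrX:141474077-141474196, minus strand: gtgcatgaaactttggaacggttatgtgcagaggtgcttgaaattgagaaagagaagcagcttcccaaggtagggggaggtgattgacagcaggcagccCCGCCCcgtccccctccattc
Col7a1, chr9:108953466-108953585, plus strand: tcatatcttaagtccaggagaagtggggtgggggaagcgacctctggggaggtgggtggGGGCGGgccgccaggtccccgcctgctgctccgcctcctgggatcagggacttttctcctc
Col10a1, chr10:34389861-34389980, plus strand: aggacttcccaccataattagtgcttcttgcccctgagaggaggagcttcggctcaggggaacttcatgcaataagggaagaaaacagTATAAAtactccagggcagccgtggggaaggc
In these windows a GC box was found in 18 of 38 collagen entries (47.4%) and in 26.5% of all 32851 entries, a TATA box in 3 (7.9%) against 6.3%, and a CCAAT box (CCAAT or ATTGG) in 6 (15.8%) against 21.3%. Some genes have more than 1 entry. These are letter matches on either strand, not shown to be sites.

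Type VI chains split within the class. Col6a1 (chromosome 10, 76708792 to 76726168, minus strand), the first of the obligate chains, lay at 257 to 1635 TPM in OSE-BPR (median 715), 391 to 908 in Ovgp1-BPR (median 548), 104 to 1081 in Ad-BPR (median 388) and 76.8 to 349 in Pax8-BPR (median 150). Ovary held 273 to 348 TPM and oviduct 353 to 548. The ranges of the models overlapped, and edgeR's test across the 4 models called Col6a1 with an adjusted p of 0.0438 and Col6a2 with 0.003. No other comparison that involved tumours called Col6a1 in either direction. Col6a2, its partner and neighbour on chromosome 10, was higher in Ovgp1-BPR than in Ad-BPR and Pax8-BPR (1.78 ± 0.48, adjusted p = 0.00526). Its call as higher in OSE-BPR than in oviduct-origin GEMM was lost in 9 of the 12 fits that left out 1 library.

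Col6a3 (chromosome 1, 90765923 to 90843971, minus strand), the usual partner of both, was low in OSE-BPR and Ovgp1-BPR. It was at 33.4, 9.39 and 18.3 TPM in OSE-BPR GEMM and 11.2, 16.3, 2.69, 2.41 and 8.07 TPM in OSE-BPR allografts. Ovgp1-BPR held 23.6, 35.0 and 11.1 TPM in GEMM tumours and 8.88, 14.1 and 34.5 TPM in allografts. The other models and both normal tissues lay higher in each library: 80.0 to 303 TPM in Pax8-BPR, 79.4 to 1036 in Ad-BPR, 105 to 118 in ovary and 196 to 483 in oviduct. edgeR's quasi-likelihood test called Col6a3 lower in Ovgp1-BPR (-3.69 ± 0.68, adjusted p = 0.000236) and in OSE-BPR allografts (-3.74 ± 0.75, adjusted p = 0.000645), and both calls held with each library left out in turn.

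The Col6a3 to Col6a1 TPM ratio shows the split within single libraries. It was 0.340 to 0.383 in ovary, 0.554 to 0.881 in oviduct, 0.335 to 0.993 in Ad-BPR and 0.292 to 1.52 in Pax8-BPR. It was 0.002 to 0.130 in OSE-BPR and 0.0122 to 0.0883 in Ovgp1-BPR, so the 14 libraries of these models lay below all 18 others. A ratio within a library shows unequal levels and not which gene changed. The Col6a1 to Col6a2 ratio moved less, from 0.696 to 3.48 over the 32 libraries.

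Col6a4, Col6a5 and Col6a6, alternatives to Col6a3 in that place, lie in a row on chromosome 9 on the minus strand, 27917 and 28810 bases apart, and did not share a pattern. Col6a6 (105687809 to 105828160) was at 12.8 to 73.9 TPM in Ovgp1-BPR and 2.67 to 42.3 TPM in OSE-BPR, against at most 0.52 TPM in Pax8-BPR, 6.34 in Ad-BPR, 5.12 in ovary and 6.64 in oviduct. It was higher in Ovgp1-BPR than in Ad-BPR and Pax8-BPR (6.55 ± 0.90, edgeR adjusted p = 1.32e-05) and in OSE-BPR allografts than in the oviduct-origin ones (3.97 ± 0.91, adjusted p = 0.0023). Col6a5 (105856078 to 105960643) was at 46.6 to 69.9 TPM in ovary against 3.45 to 5.37 in oviduct, and among tumours it was at 11.9 to 59.2 TPM in OSE-BPR, 0.49 to 15.2 in Ovgp1-BPR, up to 16.5 in Ad-BPR and up to 1.70 in Pax8-BPR. Its rise in OSE-BPR allografts was 3.88 ± 1.01 (adjusted p = 0.00512). Col6a4 was at 80.8 to 232 TPM in the normal tissues and, apart from Ad-BPR allograft 1 (191 TPM) and GEMM 2 (71.0 TPM), at most 31.1 TPM in tumours.

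**Figure D4:**
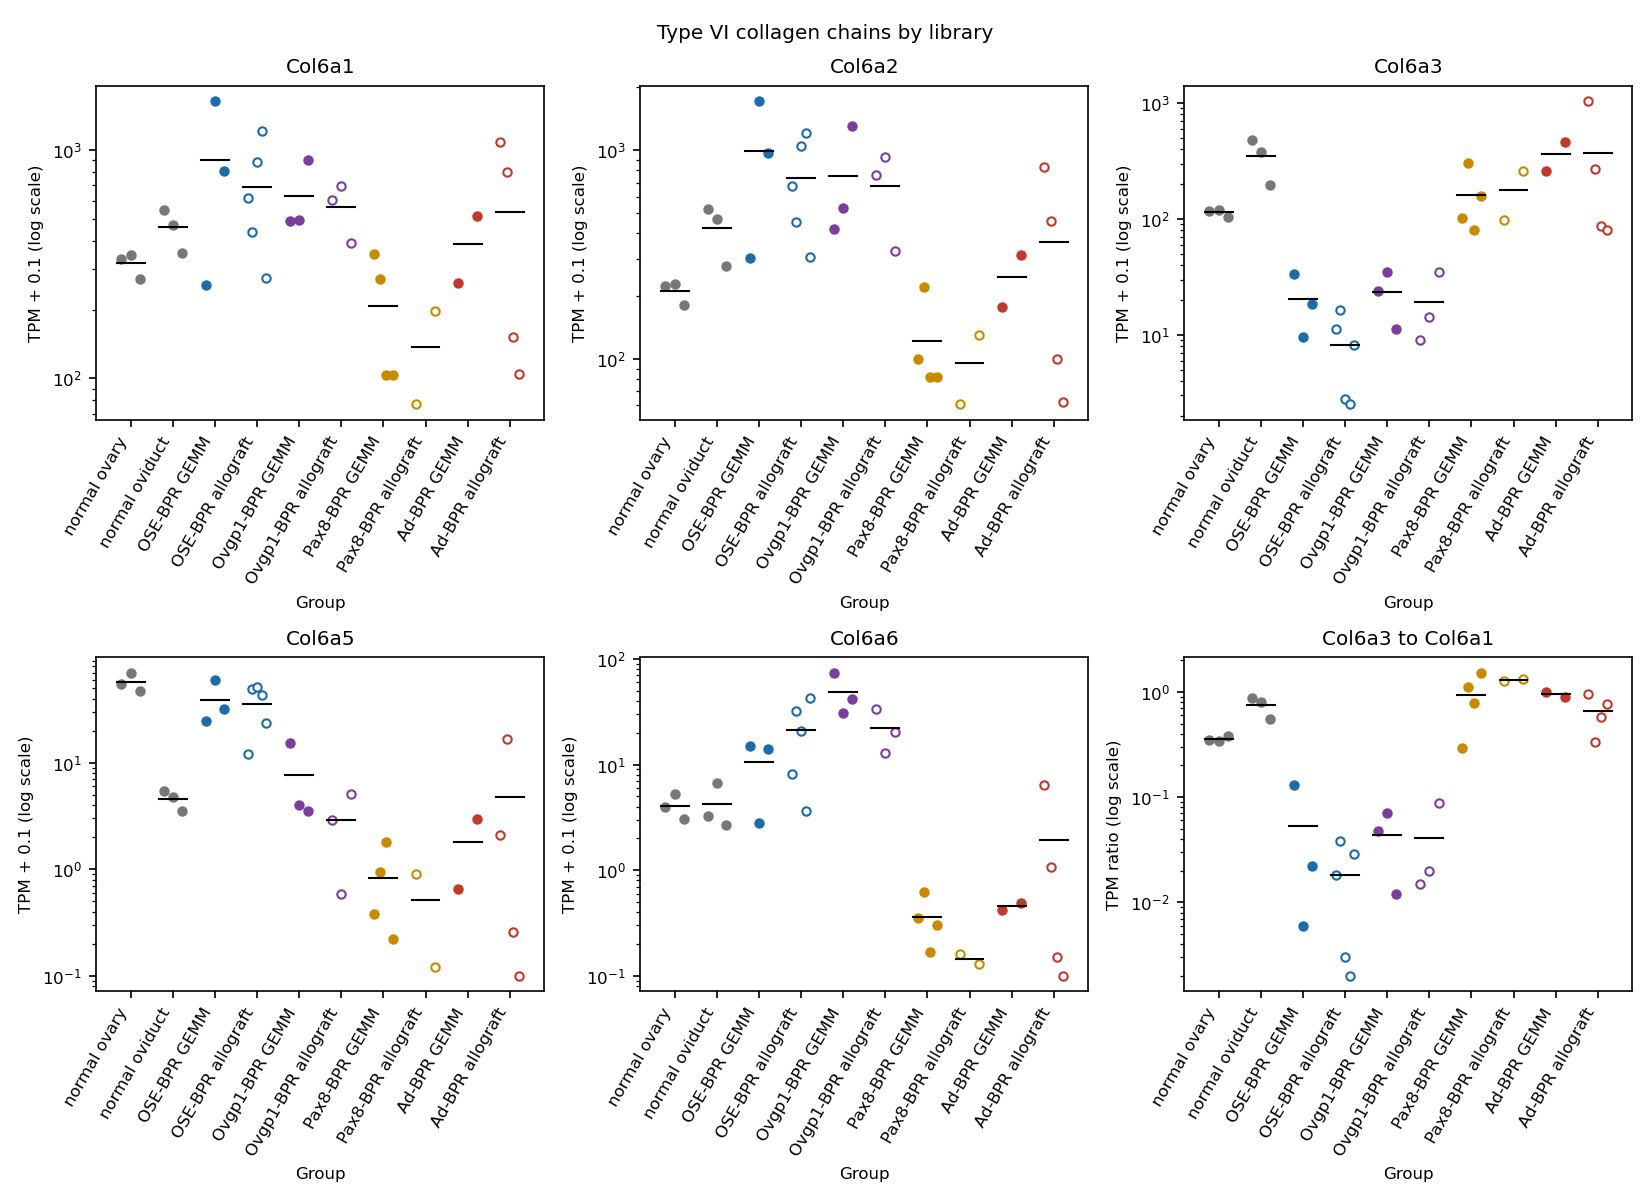
TPM + 0.1 (log scale) of Col6a1, Col6a2, Col6a3, Col6a5 and Col6a6 and the Col6a3 to Col6a1 TPM ratio (log scale) in each library by group; filled points are GEMM or normal libraries, open points allografts, bars group means. Col6a1 and Col6a2 overlap between models, while Col6a3 and the ratio (0.002 to 0.130 in OSE-BPR, 0.0122 to 0.0883 in Ovgp1-BPR) lie low in those 2 models and Col6a6 lies high.

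Col18a1 (chromosome 10, 77052178 to 77166548, minus strand), a basement membrane multiplexin whose end fragment is endostatin, was high in a single model. Ovgp1-BPR held 228, 618 and 624 TPM in GEMM tumours and 340, 644 and 177 TPM in allografts. The lower values of each set, 228 and 177 TPM, were those of the 2 libraries that stood apart. Levels elsewhere were 21.0 to 200 TPM in OSE-BPR (median 35.6), 25.0 to 73.2 in Ad-BPR, 33.1 to 113 in Pax8-BPR, 52.1 to 73.4 in ovary and 41.0 to 61.5 in oviduct, so the OSE-BPR allograft 2 value of 200 TPM was the one that reached the Ovgp1-BPR range. By edgeR's quasi-likelihood test Col18a1 was higher in Ovgp1-BPR than in Ad-BPR and Pax8-BPR (3.04 ± 0.49, adjusted p = 6.71e-05), than in OSE-BPR (2.67 ± 0.54, adjusted p = 0.00119) and, for GEMM tumours, than in oviduct (2.99 ± 0.77, adjusted p = 0.00459). The first and second of these calls held under each alternative run, and the third was lost only when normal oviduct 1 and 3 were left out together.

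Its relative Col15a1, also a multiplexin of the basement membrane zone, moved the other way. It fell in Ovgp1-BPR against Ad-BPR and Pax8-BPR (-2.35 ± 0.56, edgeR adjusted p = 0.00244), with 6.68 to 80.5 TPM against 46.0 to 365 in Ad-BPR and 67.1 to 255 in Pax8-BPR, and the ranges overlapped. Endothelial markers, which accompany both genes in vessels, summed to 83.0 to 195 TPM in Ovgp1-BPR and 77.1 to 183 in Ad-BPR and Pax8-BPR, about the same range, and their part in either result was not tested.

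Col7a1 (chromosome 9, 108953586 to 108984875, plus strand) was high in Ad-BPR and Pax8-BPR. Ad-BPR held 83.4 and 172 TPM in GEMM tumours and 359, 251, 84.7 and 63.1 TPM in allografts. Pax8-BPR held 33.6, 58.6, 27.9 and 123 TPM in GEMM tumours and 22.1 and 42.5 TPM in allografts. Levels were 2.59 to 8.16 TPM in ovary, 5.63 to 8.39 in oviduct, 0.49 to 14.1 in Ovgp1-BPR and 0.53 to 20.4 in OSE-BPR, all below the lowest Pax8-BPR library. It was lower in Ovgp1-BPR by 4.74 ± 0.90 on the log2 scale (edgeR adjusted p = 0.000316), a call that held with each library left out. The fall in OSE-BPR allografts (-2.71 ± 0.88, adjusted p = 0.0197) missed the threshold without OSE-BPR allograft 1 (adjusted p = 0.0505). Epithelial markers summed to 5493 to 8817 TPM in Ad-BPR, 2175 to 10008 in Pax8-BPR, 716 to 4437 in Ovgp1-BPR and 2290 to 5135 in OSE-BPR, and their part was not tested. The Pax8-BPR GEMM library at 2175 TPM, the second, held 58.6 TPM of Col7a1.

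Col17a1, the hemidesmosome collagen of stratified epithelia, did not track Col7a1. It was uneven within groups, at 0.46 to 13.3 TPM in Ad-BPR and 0.58 to 40.7 in Pax8-BPR, and its call as lower in Ovgp1-BPR (-4.10 ± 1.32, adjusted p = 0.0165, edgeR) was lost without Ad-BPR GEMM 1 (adjusted p = 0.0559) or Pax8-BPR allograft 1 (adjusted p = 0.057).

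Col10a1 (chromosome 10, 34389981 to 34397085, plus strand), best known as the collagen of hypertrophic cartilage, was near 0 in normal tissue and varied widely among tumours. Ovary held 0.08, 0.18 and 0.12 TPM and oviduct 0.03, 0 and 0 TPM. Ad-BPR held 15.0 and 1527 TPM in GEMM tumours and 57.03, 516, 12.6 and 315 TPM in allografts. Pax8-BPR held 69.2, 9.68, 30.8 and 11.3 TPM in GEMM tumours and 31.1 and 1.32 TPM in allografts. Ovgp1-BPR held 19.1, 3.22 and 0.26 TPM and then 0.03, 0.16 and 50.4 TPM, the highest in each set again being the libraries that stood apart. OSE-BPR stayed at or below 1.12 TPM apart from allograft 2, at 7.47 TPM.

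The test across the 4 models called Col10a1 by edgeR (adjusted p = 0.000422). Against oviduct it was called higher in all 3 oviduct-origin GEMM models and in their mean, but it passed the filter on low counts only through tumours in which it was high, so these calls carry no weight and only its levels are given. Cartilage markers summed to 28.8 TPM in Ad-BPR GEMM 2, the library at 1527 TPM of Col10a1, and to 61.4 TPM in the other Ad-BPR GEMM library.

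**Figure D5:**
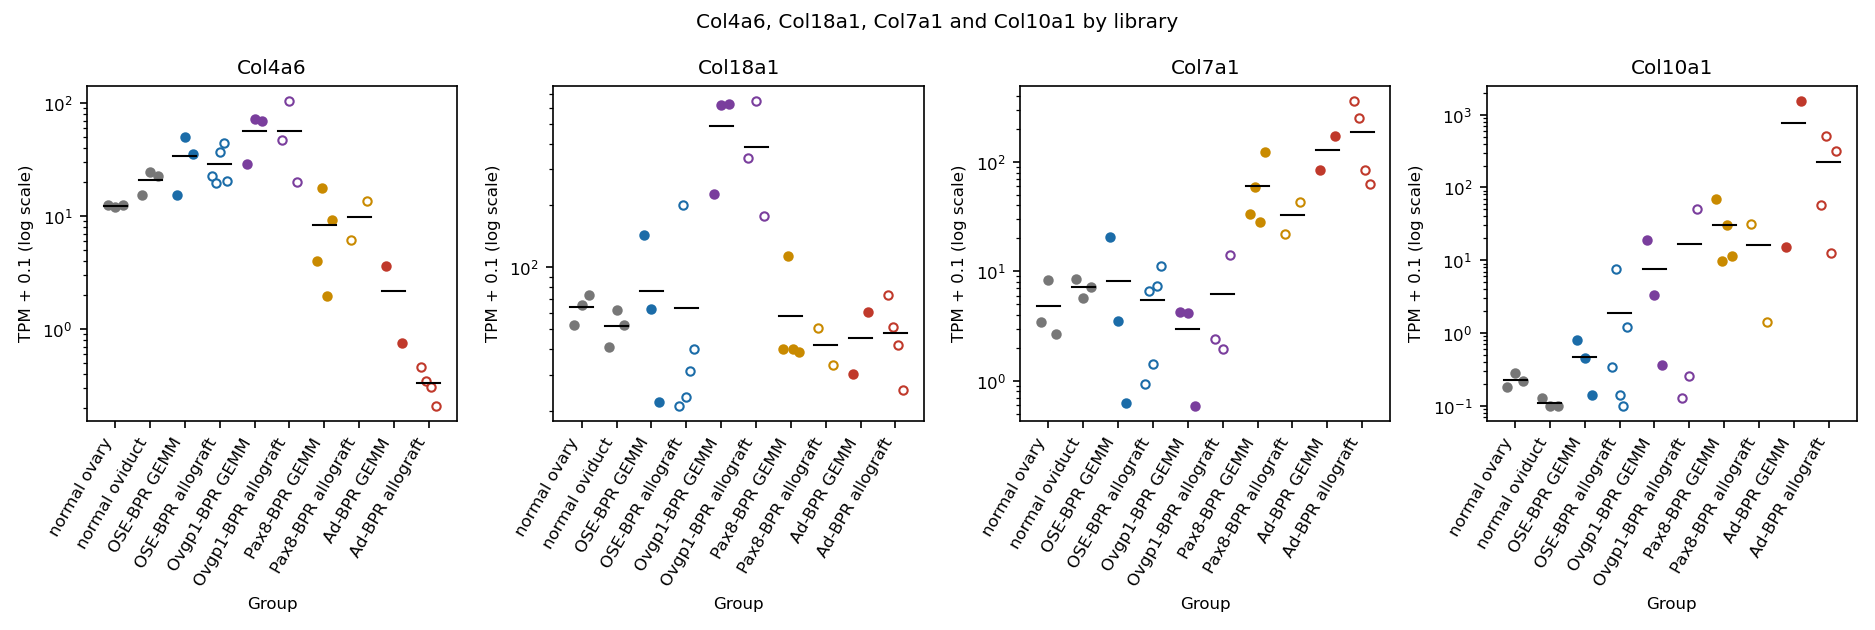
TPM + 0.1 (log scale) of Col4a6, Col18a1, Col7a1 and Col10a1 in each library by group; filled points are GEMM or normal libraries, open points allografts, bars group means. Col4a6 is lowest in Ad-BPR (0.11 to 3.5 TPM), Col18a1 highest in Ovgp1-BPR (177 to 644 TPM), and Col7a1 and Col10a1 are high in Ad-BPR and Pax8-BPR.

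Col8a1, a short-chain network collagen of vessel walls, was at 0.66 to 1.05 TPM in oviduct and at 16.6 to 76.6 TPM in Ad-BPR, 7.48 to 57.5 in Pax8-BPR, 3.99 to 27.3 in Ovgp1-BPR and 0.50 to 8.79 in OSE-BPR. Its partner Col8a2 ordered the models differently: edgeR called it higher in Ovgp1-BPR than in Ad-BPR and Pax8-BPR (2.03 ± 0.65, adjusted p = 0.0158), where Col8a1 was lower (-1.90 ± 0.60, adjusted p = 0.016).

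Of the 9 FACIT genes, 7 were tested. Col12a1, which coats type I fibrils, was at 95.2 to 280 TPM in Ad-BPR and 56.9 to 245 in Pax8-BPR, against 31.0 to 73.6 in Ovgp1-BPR and 3.64 to 35.6 in OSE-BPR. Each OSE-BPR library lay below the lowest Pax8-BPR and Ad-BPR library. edgeR called it lower in Ovgp1-BPR (-1.80 ± 0.45, adjusted p = 0.00305) and in OSE-BPR allografts (-3.04 ± 0.53, adjusted p = 0.000184). Col14a1, of the same family, overlapped among models (3.11 to 109 TPM), and its call as lower in Ovgp1-BPR (-1.50 ± 0.56, adjusted p = 0.0349) was lost when any of 7 libraries was left out, with adjusted p-values from 0.0511 without Ad-BPR allograft 1 to 0.0923 without Ovgp1-BPR allograft 2. The other 5 libraries were Ad-BPR GEMM 2, Ovgp1-BPR GEMM 2, Ovgp1-BPR GEMM 3, Ovgp1-BPR allograft 1 and Pax8-BPR allograft 1. Col20a1 was low throughout (0.18 to 12.3 TPM) and higher in Ovgp1-BPR (2.40 ± 0.48, adjusted p = 0.000501).

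Among the remaining genes, Col26a1 was at 15.2 to 20.2 TPM in ovary and 4.2 to 7.72 in oviduct. In Ovgp1-BPR it was at 9.30 to 21.2 TPM in 4 libraries and listed at 0 in GEMM 1 and allograft 3, the libraries that stood apart. edgeR called it higher in Ovgp1-BPR than in Ad-BPR and Pax8-BPR (5.49 ± 1.3, adjusted p = 0.00212).

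Oviduct held more fibrillar and less type IV collagen RNA than ovary. edgeR's quasi-likelihood test within the 6 normal libraries called 26 of the 40 collagen genes tested, 15 higher and 11 lower in oviduct than in ovary, where 53.0% of all genes were called (28.5% higher and 24.5% lower), with medians of 0.34 and 0.02. Of the 10 fibrillar genes tested 5 were higher and 2 lower, of the 6 type IV genes 1 was higher (Col4a6) and 4 lower, and of the 6 type VI genes 3 were higher and 1 lower. Col5a3 rose by 3.26 ± 0.18 (adjusted p = 1.88e-05), Col14a1 by 2.79 ± 0.27 (adjusted p = 0.000194) and Col1a1 by 1.64 ± 0.22 (adjusted p = 0.000871) on the log2 scale. Col6a5 fell by 3.42 ± 0.25 (adjusted p = 5.9e-05), Col11a1 by 2.80 ± 0.46 (adjusted p = 0.00231), Col4a4 by 1.2 ± 0.15 (adjusted p = 0.000602) and Col4a1 by 0.93 ± 0.19 (adjusted p = 0.0059).

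These calls rest on the small spread among normal libraries: with the spread estimated over all 32 libraries, 2 collagen genes were called. The count was 27 without normal oviduct 1 and 3, which leaves 1 oviduct library, assumed to vary like the ovary libraries. Smooth muscle markers were 7 of 7 higher in oviduct and granulosa and theca markers 5 of 7 lower, where 28.5% of all genes were higher and 24.5% lower. The part of these markers in the collagen difference was not tested.

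OSE-BPR GEMM tumours were set against normal ovary. edgeR's quasi-likelihood test called 8 of 42 collagen genes, 3 higher and 5 lower, where 23.2% of all genes were called (11.6% in each direction), with medians of -0.56 and 0. Col5a1 (-1.52 ± 0.37, adjusted p = 0.00409) and the transmembrane gene Col13a1 (-3.48 ± 0.88, adjusted p = 0.00597) fell with each library left out in turn. Col1a2 fell by 4.27 ± 1.25 (adjusted p = 0.0155), but not past the threshold without OSE-BPR GEMM 2 (adjusted p = 0.075) or OSE-BPR GEMM 3 (adjusted p = 0.0685). Col1a1 did not pass (-1.95 ± 0.89, adjusted p = 0.12), with OSE-BPR GEMM 1 at 167 TPM near the ovary range. The rise of Col9a3 (3.67 ± 1.04, adjusted p = 0.0128) was 0.40 without OSE-BPR GEMM 1 (adjusted p = 0.766), and missed the threshold without ovary 3 (adjusted p = 0.0547). Col2a1, also called higher, passed the filter on low counts through tumours and not through ovary (at most 0.10 TPM), so its call carries no weight. The calls of Col6a2 as higher and of Col6a3 as lower were each lost in 5 of the 6 fits that left out 1 library. The count of collagen genes was 14 without OSE-BPR GEMM 1, 5 without ovary 1, and 4 without ovary 3 or OSE-BPR GEMM 3. By other tests it was 13 (DESeq2) and 26 (limma voom with quality weights).

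Each oviduct-origin model was set against the same 3 oviduct libraries, so the comparisons share their controls. By edgeR's quasi-likelihood test, Ovgp1-BPR GEMM tumours had 16 of 42 collagen genes called, 6 higher and 10 lower, where 32.6% of all genes were called (15.3% higher and 17.3% lower). Ad-BPR GEMM tumours had 9 called, 6 higher and 3 lower, where 24.1% were called (11.7% and 12.3%). Pax8-BPR GEMM tumours had 10 called, 5 in each direction, where 32.2% were called (15.9% and 16.3%). The medians over collagen genes were -0.92, -0.13 and -0.04, and over all genes -0.05, -0.07 and -0.01. For the equal-weight mean of the 3 models, 10 genes were called, 2 higher and 8 lower, where 35.7% were called (14.8% and 20.9%), with medians of -0.34 and -0.04. Each of these counts of higher genes includes Col10a1, whose calls against oviduct carry no weight, as said above. In Ad-BPR the count was 1 without GEMM 2, in Pax8-BPR 6 without oviduct 2 and in Ovgp1-BPR 10 without oviduct 1 or oviduct 2. For the mean of the models it was 6 without oviduct 1, oviduct 2 or Ad-BPR GEMM 1. Leaving out oviduct 1 and 3 together, which leaves 1 control, gave 2, 3, 7 and 2 called genes for Ad-BPR, Pax8-BPR, Ovgp1-BPR and their mean. Without Ovgp1-BPR GEMM 1 and allograft 3 the counts for Ovgp1-BPR and the mean were 13 and 9.

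In Ovgp1-BPR, 6 of 11 fibrillar genes fell against oviduct, namely Col1a1 (-3.68 ± 0.96, edgeR adjusted p = 0.00539), Col1a2, Col3a1, Col5a1 (-2.21 ± 0.37, adjusted p = 0.000104), Col5a2 and Col5a3, and none rose. The Col3a1 call was lost without Ovgp1-BPR GEMM 2 (adjusted p = 0.0705). In Ad-BPR, Col5a2 (1.76 ± 0.48, adjusted p = 0.0102) and Col27a1 (2.44 ± 0.88, adjusted p = 0.0458) rose and no fibrillar gene fell, while in Pax8-BPR Col5a2 alone of the fibrillar genes was called, as higher (1.34 ± 0.42, adjusted p = 0.0167). Without Ad-BPR GEMM 2, which leaves 1 tumour assumed to vary like the other groups, Col5a2 and Col27a1 missed the threshold in Ad-BPR (adjusted p = 0.103 and 0.554), and Col27a1 also did without oviduct 1, 2 or 3 (0.0833, 0.118 and 0.104). In Pax8-BPR, Col5a2 missed it without oviduct 2 (0.0523) or oviduct 3 (0.056). Col1a1 did not pass in either, at 0.83 ± 0.95 (adjusted p = 0.55) and 0.46 ± 0.81 (adjusted p = 0.7).

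Col8a1 was higher than oviduct in all 3, by 4.86 ± 1.00, 5.12 ± 0.97 and 3.21 ± 0.91 in Ad-BPR, Pax8-BPR and Ovgp1-BPR (edgeR adjusted p = 0.00136, 0.000311 and 0.00928). Col7a1 rose in Ad-BPR (4.91 ± 1.26, adjusted p = 0.00716) and Pax8-BPR (3.74 ± 1.13, adjusted p = 0.0137) and did not pass in Ovgp1-BPR (-1.10 ± 1.08, adjusted p = 0.46). Col4a6 fell in Ad-BPR (-3.44 ± 0.83, adjusted p = 0.00471). The transmembrane gene Col23a1 fell in Ad-BPR (-4.96 ± 1.29, adjusted p = 0.00785) and Pax8-BPR (-3.10 ± 0.88, adjusted p = 0.00937), from 7.13 to 16.9 TPM in oviduct to at most 3.75 TPM. Smooth muscle markers fell in each model against oviduct, 7 of 7, and their part in these collagen results was not tested. Of all genes tested, 12.3%, 16.3% and 17.3% fell in Ad-BPR, Pax8-BPR and Ovgp1-BPR. In Ad-BPR, Col7a1 and Col4a6 missed the threshold without GEMM 2 (adjusted p = 0.0715 and 0.0947), and Col23a1 without GEMM 1 (0.0941) or GEMM 2 (0.0544). In Pax8-BPR, Col7a1 missed it without oviduct 2 (0.0556) or oviduct 3 (0.0602). The Col8a1 calls held with each library left out, but not without oviduct 1 and 3 together.

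Allografts were compared with GEMM tumours as the mean over the 4 models. edgeR's quasi-likelihood test called 0 of 42 collagen genes, where 0.0% of all genes were called, and 1 collagen gene had an unadjusted p under 0.05; DESeq2 called 0 as well. The effect of grafting differed among models for 0 collagen genes (0.0% of all genes), with 2 at an unadjusted p under 0.05, and DESeq2 called 0. The log2 differences were 0.00 ± 0.47 for Col1a1, 0.06 ± 0.49 for Col3a1, -0.39 ± 0.27 for Col4a1, -0.73 ± 0.36 for Col4a6, -0.24 ± 0.39 for Col18a1 and 0.13 ± 0.57 for Col7a1. These errors leave room for differences of a size seen elsewhere here, so likeness of allografts and primary tumours is not shown.

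The genes that fold, process and bind collagen were read from fixed lists. Of 18 folding and modification genes, in Ovgp1-BPR against Ad-BPR and Pax8-BPR, 3 rose and 5 fell by edgeR's quasi-likelihood test, where 42.4% of all genes were called (22.6% higher and 19.7% lower). P4hb, the shared subunit of prolyl hydroxylase, fell (-1.34 ± 0.15, adjusted p = 9.31e-07), while of its catalytic subunits P4ha1 rose (1.09 ± 0.22, adjusted p = 0.000632) and P4ha2 (-1.22 ± 0.27, adjusted p = 0.00121) and P4ha3 (-2.86 ± 0.60, adjusted p = 0.000809) fell. Of 13 cleavage and crosslinking genes, 2 rose and 1 fell, against the same shares of all genes. Loxl4, a lysyl oxidase, rose (2.90 ± 0.64, adjusted p = 0.00118). The other that rose was the procollagen protease gene Tll2, at 0.52 to 27.7 TPM in Ovgp1-BPR and at most 0.07 TPM in Ad-BPR and Pax8-BPR, which passed the filter on low counts only through libraries in which it was high, so its call carries no weight.

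In OSE-BPR against the oviduct-origin allografts, 8 of the 13 cleavage and crosslinking genes fell and none rose (median log2 fold change -1.46), among them Lox (-2.95 ± 0.60, edgeR adjusted p = 0.00076), and 4 of 18 folding genes fell and none rose, where 37.8% of all genes were called (20.4% higher and 17.4% lower). Of 11 fibril-associated matrix genes 7 fell and none rose, among them Postn (-5.51 ± 0.87, adjusted p = 7.72e-05) and Tnc (-5.71 ± 1.11, adjusted p = 0.000498). In Ovgp1-BPR against OSE-BPR, 6 of the 11 rose and none fell, where 29.2% of all genes were called (15.1% higher and 14.2% lower), with Bgn at 3.13 ± 0.49 (adjusted p = 0.000114) and Fn1 at 3.13 ± 0.63 (adjusted p = 0.00109). Dcn, a small proteoglycan on fibrils, and Ogn rose in Ovgp1-BPR against Ad-BPR and Pax8-BPR as well (2.16 ± 0.43 and 2.56 ± 0.70, adjusted p = 0.000472 and 0.00594), where Tnc, Postn and Thbs2 fell.

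Itga2, a subunit of the collagen receptor integrin of epithelia and platelets, was lower in Ovgp1-BPR (-3.99 ± 0.72, edgeR adjusted p = 0.000204) and in OSE-BPR allografts (-5.77 ± 0.88, adjusted p = 5.52e-05). Of 16 basement membrane partners in Ovgp1-BPR against Ad-BPR and Pax8-BPR, 4 rose and 6 fell, where 42.4% of all genes were called. The laminin chain genes Lama3 and Lamb3 were among those that fell, with log2 fold changes of -3.77 ± 0.63 and -4.41 ± 0.78 (adjusted p = 9.92e-05 and 0.000165). Nid2, a linker of laminin and type IV collagen, rose (2.90 ± 0.41, adjusted p = 1.75e-05).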

How the data were processed

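Gene-level expected counts and TPM were deposited by the authors for 32 libraries. RSEM 1.3.1, STAR 2.7.0f, cutadapt 1.18, bcl2fastq and Picard, with the build mm10 (GRCm38), are named in the submitters' processing notes. Whether counting used strand is not stated. The deposited expected counts are RSEM estimates (93.3% of them whole) and were rounded; the deposited TPM values were used for levels and for comparing genes. All 55450 gene IDs matched GENCODE M21, and 0 columns were unmapped.

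Counts were tested with edgeR 4.0.16 in R 4.3.3 (quasi-likelihood F test, TMM factors, filterByExpr with a minimum count of 10 and a minimum total of 15, Benjamini-Hochberg over all genes tested, threshold 0.05). Separate fits used the 6 normal libraries (17334 genes), all 32 for tumours against normal tissue (20887 genes) and the 26 tumours (20000 genes). Fold changes are log2 with standard errors taken from the F statistic. A gene that passes the filter only through the group where it is high had to differ, so counts over genes tested carry no further weight. The procedure was tested on simulated data.

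The members and the gene lists were chosen with earlier results of these data known. Named are Col1a1, Col1a2, Col3a1, Col5a1, Col5a2, Col11a1, Col2a1, all Col4 genes, Col6a1 to Col6a3, Col7a1, Col12a1, Col14a1, Col15a1, Col17a1 and Col18a1, then up to 5 called members per direction and comparison with the largest fold and at least 1 TPM, and up to 3 per direction of each list of partners. Others named were chosen after their values were seen. One gene of the partner lists is not reported here.

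Ovary and oviduct libraries with the same number come from the same animal by the labels. Their deviations correlated at -0.084, -0.044 and 0.06 for the 3 pairs. Alternatives were RLE factors, other filters, DESeq2 1.42.0, limma 3.58.1 (voom with quality weights, and log2(TPM + 1) or log2(TPM + 0.1)), fits of only the groups compared, the animal as a block, and leaving out libraries. No 2 libraries of a group agreed within sampling noise (lowest chi-square per degree of freedom 10.92 over 39 pairs).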

Additional observations from a re-analysis of the deposited data

Results flagged for a closer look

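Single libraries far from the rest of their group, by Dixon's test in the groups of 4 or 5, were seen in 26 of 135 combinations of measure and group. The chance rate of about 1 in 20 holds for independent values with a Gaussian spread. The test was run on untransformed TPM and ratios, and some libraries gave several flags. The count therefore cannot be judged against that rate. In OSE-BPR allografts, library 2 was highest for Col1a2 (64.4 TPM), Col2a1 (4.46), Col3a1 (205), Col10a1 (7.47) and Col18a1 (200), against at most 18.0, 1.54, 55.4, 1.12 and 40.0 TPM in the other 4. Its granulosa and theca markers summed to 561 TPM and its fibroblast markers to 68.8. In the same group library 5 held 38.2 TPM of Col5a1 against at most 15.4, and library 1 held 8.48 TPM of Col11a1 against at most 1.43. Library 4 held 5.86 TPM of Col23a1 against at most 1.5, and its Col1a1 to Col1a2 ratio was 7.26 against at most 2.75.

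In Pax8-BPR GEMM, library 2 was highest for Col2a1 (1.17 TPM), Col6a2 (222), Col9a2 (11.2), Col18a1 (113), Col22a1 (7.90), Col23a1 (3.75) and Col26a1 (10.2), against at most 0.04, 100, 0.95, 39.8, 0.17, 0.76 and 1.03 TPM in the other 3. Its epithelial markers summed to 2175 TPM against at least 6089. Library 1 held 11.3 TPM of Col4a3 against at most 1.76 and had a Col6a1 to Col6a2 ratio of 3.48 against at most 1.26. Library 4 held 34.9 TPM of Col4a5 and 106 TPM of Col5a3 against at most 16.8 and 26.7, and library 3 held 27.0 TPM of Col17a1 against at most 1.32.

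In Ad-BPR allografts, library 1 held 191 TPM of Col6a4 and 6.34 TPM of Col6a6 against at most 31.1 and 0.97, and its skeletal muscle markers summed to 476 TPM against at most 15.8. Library 2 held 16.5 TPM of Col6a5 against at most 2.02, library 3 held 3.24 TPM of Col13a1 against at most 0.83, and library 4 held 0.18 TPM of Col22a1, which was listed at 0 in the others.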

How the results depend on the processing

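Of 132 named fold changes, recomputed 2597 times in all, 2259 kept their direction and call, 336 kept the direction but missed the threshold and 2 reversed. DESeq2 kept 132 of 132. All 132 had been chosen as calls of edgeR on the same counts, so this is no independent check. The reversals were Col9a2 in the mean of oviduct-origin GEMM against oviduct without normal oviduct 1 and 3 (0.09), and Col9a3 in OSE-BPR against oviduct-origin GEMM without OSE-BPR GEMM 1 (-0.64, the lowest of -0.64 to 3.18 over libraries left out). Oviduct against ovary gave 26 called genes, 26 with the animal as a replicate block (no named call changed, 23 of 23) and 2 in the fit of all 32 libraries, which kept 2 of 23 named calls. OSE-BPR GEMM against ovary gave 8, but 26 with limma voom and 13 with DESeq2. The mean of oviduct-origin GEMM against oviduct gave 10, but 21 with voom and 2 without oviduct 1 and 3. Ad-BPR gave 9, but 18 when only the groups compared were fitted, 16 with voom and 2 without oviduct 1 and 3; Pax8-BPR gave 10 and Ovgp1-BPR 16, but 3 and 7 without oviduct 1 and 3, which leaves 1 control. The other causes were not tested. Leaving out 1 library in turn gave 23 to 27 for oviduct against ovary, 4 to 14 for OSE-BPR GEMM against ovary, 6 to 11, 1 to 7, 6 to 12 and 10 to 13 for the mean of oviduct-origin GEMM, Ad-BPR, Pax8-BPR and Ovgp1-BPR against oviduct, 3 to 14 and 15 to 20 for OSE-BPR against oviduct-origin GEMM and allografts, 24 to 28 for Ovgp1-BPR against Ad-BPR and Pax8-BPR, 4 to 13 against OSE-BPR, 31 to 36 among the 4 models, and 0 for both tests on allografts. Class sums in CPM with TMM factors moved by no more than the spread between replicates. So did the GEMM class sums over normal tissue with 1 library left out in turn, a setting chosen after seeing the data. In groups this small that limit could hardly be exceeded. Without OSE-BPR GEMM 1, the fold of ovary over OSE-BPR GEMM went from 4.59 to 12.78 for fibrillar genes and from 1.13 to 1.75 for type IV genes. Without Ad-BPR GEMM 2, the ratio of Ad-BPR GEMM to oviduct for the other classes went from 1.27 to 0.72, which reversed its direction. Groups of 2 to 5 tumours with wide spread limit these tests, and genes below about 1 TPM rest on few counts.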
